A study of Mus musculus with 4 samples.

Results

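The genes of the major histocompatibility complex (MHC) and of antigen presentation were taken as the protein-coding rows of the deposited table whose names start with H2- or are B2m, Tap1, Tap2, Tapbp, Tapbpl, Erap1, Nlrc5, Ciita or Cd74. This gave 43 of the 54532 genes in the table, chosen by name and not by their values. They comprise 11 class II genes, 24 class I heavy chain genes, 7 class I loading genes and 1 gene, H2-Ke6, that lies among the MHC genes but encodes no MHC molecule. The cells were mouse naive CD4+ T cells from the spleen of wild-type animals, cultured for 3 days in a Tfh setting (Tfh, T follicular helper, is the fate of T cells that help B cells in follicles). The DMF group (2 libraries) received dimethyl fumarate, an ester of fumaric acid known to activate the transcription factor Nrf2. The control group (2 libraries) received none. Strain, age, DMF dose and the number of animals are not given in the labels, nor is it stated whether replicates were separate cultures or animals. P-values here thus measure only the spread between these libraries, which may be technical. Values are FPKM (read counts corrected for gene length and library size), which allows levels of different genes to be compared. H2-Ke6 had 11 and 19 reads in the DMF libraries and 4 and 16 reads in the controls, with overlap, and is not described further.

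MHC molecules hold peptides at the cell surface for T cells to read. Class I molecules pair a heavy chain with beta-2 microglobulin (B2m), are made by nearly all nucleated cells and carry peptides that the TAP transporter brings into the endoplasmic reticulum. Class II molecules pair an alpha and a beta chain, travel with the invariant chain (Cd74) and are made mainly by B cells, dendritic cells and macrophages, whereas mouse T cells make little of them. Class II genes depend on the transactivator CIITA and class I genes are enhanced by its relative NLRC5. Both act through a promoter module of S, X and Y boxes.

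In the DMF libraries 9 of the 10 tested class I heavy chains lay below both controls, or 8 of 9 without H2-Q10, which only its control values took past the level filter, where 26.8% of all tested genes did. The class II genes were mixed: of 9 tested, 3 lay above both controls (H2-Aa, H2-DMb2 and H2-DMb1), 1 lay below (H2-DMa) and 5 overlapped, beside 26.4% above over all tested genes. The transactivator Ciita, below the filter, lay above both controls, and so did 7 of 9 tested B cell markers. Of these markers, Pax5 and Blk passed the filter only through their DMF values. Relative to class I, whose own values lay lower, class II transcripts were higher in DMF cultures. The summed FPKM of H2-Aa, H2-Ab1 and H2-Eb1 came to 12.4% and 11.8% of that of H2-K1 and H2-D1 in the DMF libraries, against 4.02% and 4.99% in the controls. No single member passed the test over all genes (limma on log2(FPKM + 1), Benjamini-Hochberg adjusted p of 0.201 to 0.927).

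The test was made on 12166 genes with a mean of at least 1 FPKM over the 4 libraries, and 26 members were among them. limma called 0% of these genes at an adjusted p under 0.05, against 382 higher (3.14%) and 768 lower (6.31%) in DMF cultures at an unadjusted p under 0.05. Of the members, H2-Aa and H2-DMb2 (higher) and H2-Q6, H2-Q7 and H2-Q10 (lower) passed at that unadjusted level. Both DMF libraries lay above both controls in 26.4% of the tested genes and below both in 26.8%. With 2 libraries a group an exact permutation test of a single gene cannot give a p below 0.333. The recovered reads ranged from 15900118 to 17516953 per library. The library size implied by the FPKM of control replicate 2 was 13929627, or 0.876 of its recovered reads. For control replicate 1 and DMF replicates 1 and 2 it was 1.03, 1.07 and 1.07 times the recovered reads. The FPKM of control replicate 2 are thus raised relative to the other libraries, beside values scaled to recovered reads. The controls differed more from each other than the DMF libraries did. The SD of the log2 difference over genes was 0.745 between the controls and 0.316 between the DMF libraries. This touched the members too, since the median ratio of control replicate 2 to control replicate 1 was 1.89 over the tested class II genes, 1.56 over the heavy chains and 1.05 over all tested genes. All 8 T cell markers passed the level filter and 6 of them lay below both controls, with Cd4 at 103 and 100 FPKM in the DMF libraries and 128 and 105 FPKM in the controls. Their sum was 1571 and 1551 FPKM in the DMF libraries and 1680 and 2580 FPKM in the controls. Of 5 CD8 T and natural killer cell markers, 3 were tested and all 3 lay below both controls. Of these, Klrd1 and Cd8a passed the level filter only through their control values, which favoured their place below. The 5 markers summed to 2.55 and 2.51 FPKM in the DMF libraries against 11.9 and 20.2 FPKM in the controls. In bulk RNA, fewer cells of a type and less RNA per cell cannot be told apart.

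Promoters of both classes are shown because class II and class I genes are known to share this module. RefSeq windows (GRCm38.p6) were matched for 35 of the 43 members. They run from 250 bases before the annotated transcript start to 50 bases after it. Of the stretches printed here, each of 120 bases ending just before the start, H2-Aa and H2-Eb1 stand for class II chains that were higher or overlapped, H2-Oa and H2-Ob for the class II DO chains, and H2-D1, H2-Q6, H2-T23 and B2m for class I genes whose DMF values lay below both controls. The start used is that of the RefSeq window, which can differ from the gene start in the deposited table. By the deposited positions, the printed stretches of H2-D1 and H2-T23 lie inside the gene and that of H2-Oa runs past the gene start. Capitals mark matches to the Y box sequence CTGATTGG, read as CCAATCAG on the opposite strand. Where the longer form is missing (H2-Ob and B2m), only its core GATTGG is marked. Such a match is one of sequence alone, and whether it is the Y box of the module was not tested. A match to the X box core CCNNGCAAC is also in capitals: the first run in H2-Oa and H2-Ob and the second run in H2-D1. In H2-D1 it thus lies on the other side of the Y box match, nearer the start, and was not shown to be the X box of the module.
H2-Aa (chr17:34287824-34287943, minus strand): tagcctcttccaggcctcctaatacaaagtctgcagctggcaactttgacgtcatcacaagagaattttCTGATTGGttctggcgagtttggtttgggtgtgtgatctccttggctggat
H2-Eb1 (chr17:34305747-34305866, plus strand): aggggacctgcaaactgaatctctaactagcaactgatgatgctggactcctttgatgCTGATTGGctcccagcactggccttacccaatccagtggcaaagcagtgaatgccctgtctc
H2-Oa (chr17:34092259-34092378, plus strand): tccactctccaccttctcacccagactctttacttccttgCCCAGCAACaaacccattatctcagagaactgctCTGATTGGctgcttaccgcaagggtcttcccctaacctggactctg
H2-Ob (chr17:34238785-34238904, plus strand): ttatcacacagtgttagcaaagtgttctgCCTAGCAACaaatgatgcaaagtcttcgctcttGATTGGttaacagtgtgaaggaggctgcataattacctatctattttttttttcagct
H2-D1 (chr17:35262974-35263093, plus strand): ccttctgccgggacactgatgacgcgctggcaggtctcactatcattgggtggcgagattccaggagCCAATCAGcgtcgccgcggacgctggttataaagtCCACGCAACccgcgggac
H2-Q6 (chr17:35424730-35424849, plus strand): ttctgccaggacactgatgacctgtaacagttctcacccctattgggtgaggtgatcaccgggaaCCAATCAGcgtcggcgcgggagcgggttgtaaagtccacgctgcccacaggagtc
H2-T23 (chr17:36032702-36032821, minus strand): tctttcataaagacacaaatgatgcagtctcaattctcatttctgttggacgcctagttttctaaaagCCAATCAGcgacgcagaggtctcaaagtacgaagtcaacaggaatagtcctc
B2m (chr2:122147567-122147686, plus strand): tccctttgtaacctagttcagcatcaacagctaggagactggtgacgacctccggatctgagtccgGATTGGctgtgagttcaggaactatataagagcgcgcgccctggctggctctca

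The Y box sequence CTGATTGG occurred on either strand in the windows of 4 of 8 class II genes (50%), 13 of 22 class I heavy chains (59.1%) and 4.7% of all 27025 genes with a window. It began at position -51 in H2-Aa and -62 in H2-Eb1, on the strand of the gene, counted from the transcript start. In H2-D1, H2-Q6 and H2-T23 it began at positions -53, -55 and -52 and lay on the other strand. It lay on that strand also in H2-Q7, at -16, and in the windows of H2-K1, at -6 and 8. These class I matches were not shown to be the Y box of the module. The printed stretches of H2-D1 and H2-Q6 also hold attgggtg farther from the start, which the search did not count. The core GATTGG, which is contained in the Y box, was present in all 8 class II genes with a window, 16 of 22 heavy chains (72.7%), 2 of 4 loading genes (50%) and 18.2% of all genes. The X box core CCNNGCAAC was found in 3 of 8 class II genes, 2 of 22 heavy chains and 5.59% of all genes. The match in H2-DMa began at position -7 and lay on the other strand. The printed stretches of H2-Aa and H2-Eb1 hold gctggcaac and actagcaac before the Y box match. These miss the pattern only in the first base and were not counted, so the count does not show that these genes lack an X box. A match to the interferon-stimulated response element, searched on both strands, occurred in B2m, Erap1, H2-T22 and H2-T23 and in 3.99% of all genes. The gamma-activated site TTCNNNGAA, which reads the same on both strands, occurred in 1 of 8 class II genes, 2 of 22 heavy chains and 9.55% of all genes. Of the 13 heavy chains with a Y box match, 8 are M region genes that had 0 reads in all libraries, and among tested heavy chains with a window 5 of 9 had a match.

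Class II chains that bind peptide were compared first. The alpha and beta chains of the I-A molecule, H2-Aa (chromosome 17, 34282744 to 34287827) and H2-Ab1 (chromosome 17, 34263209 to 34269418), lie side by side on GRCm38. H2-Aa was at 15.1 and 15.1 FPKM in the DMF libraries and at 4.27 and 9.85 FPKM in the controls. The groups did not overlap, and the log2 difference was 1.09 ± 0.39 (SE, n = 2 per group; limma adjusted p = 0.521). H2-Ab1 was at 27.5 and 27.2 FPKM in the DMF libraries, against 14 and 29.1 FPKM in the controls. The groups overlapped, since control replicate 2 lay above both DMF libraries. H2-Eb1, the beta chain of the I-E molecule, was at 33.2 and 28.8 FPKM in the DMF libraries and at 17.5 and 33.2 FPKM in the controls, again with overlap. The log2 differences of H2-Ab1 and H2-Eb1 were 0.41 ± 0.38 and 0.34 ± 0.35 (SE; limma adjusted p = 0.608 and 0.634). Within I-A, the level of H2-Aa was 54.9% and 55.5% of that of H2-Ab1 in the DMF libraries, against 30.5% and 33.9% in the controls. The related beta chain H2-Eb2 did not reach the filter. It had 26 and 35 reads in the DMF libraries, against 19 reads and 1 read in the controls.

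Cd74, the invariant chain that blocks the groove of class II molecules on their way to the endosome, was the class II member with the highest level. It was at 85.5 and 87.1 FPKM in the DMF libraries and at 47.5 and 97 FPKM in the controls, so the groups overlapped (0.34 ± 0.39 on the log2 scale, limma adjusted p = 0.668). The gap between the controls, a ratio of 2.04, exceeded the ratio of 1.19 between the group means.

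The class II transactivator itself was scarce. Ciita (chromosome 16, 10480059 to 10528418) had 158 and 126 reads in the DMF libraries and 49 and 33 reads in the controls, which is 0.905 and 0.708 FPKM against 0.29 and 0.248 FPKM. Both DMF libraries lay above both controls, with a ratio of 3 between the group means. It lay below the level filter, and in the fit without that filter its difference was 0.51 ± 0.15 on the log2(FPKM + 1) scale (limma adjusted p = 0.562), a scale that understates changes at such levels.

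**Figure D1:**
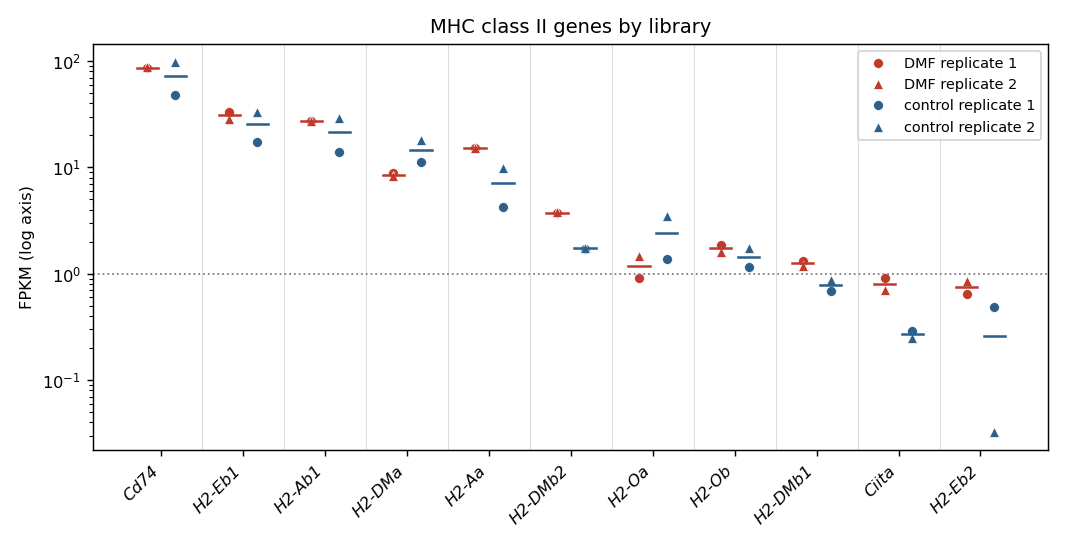
FPKM of the 11 class II members in each library on a log axis, DMF left (red) and control right (blue) for each gene, with circles for replicate 1, triangles for replicate 2 and bars for group means; the dotted line marks 1 FPKM. H2-Aa, H2-DMb2, H2-DMb1, Ciita and H2-Eb2 have both DMF libraries above both controls, H2-DMa has both below, and the other members overlap.

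The DM and DO molecules edit the peptides of class II in the endosome, where DM removes the invariant chain fragment and DO restrains DM. Their chains did not lie in 1 direction. H2-DMb2, a DM beta chain, was at 3.71 and 3.79 FPKM in the DMF libraries and at 1.72 and 1.76 FPKM in the controls, a difference of 0.79 ± 0.19 on the log2 scale (limma adjusted p = 0.36). H2-DMb1, the other DM beta chain, was at 1.32 and 1.19 FPKM in the DMF libraries, against 0.684 and 0.87 FPKM in the controls. Only its DMF values took it past the level filter. The shared alpha chain H2-DMa lay the other way, at 8.79 and 8.26 FPKM in the DMF libraries and at 11.2 and 17.9 FPKM in the controls (-0.68 ± 0.27, adjusted p = 0.54). Both DMF libraries lay below both controls. The ratio of H2-DMa to the sum of the DM beta chains was 1.75 and 1.66 in the DMF libraries, against 4.69 and 6.79 in the controls, so the groups were apart on this within-library measure. H2-DMb1 and H2-DMb2 are near copies, and 22.7% and 24.8% of their 50-base stretches in GENCODE transcripts also occur in another gene, so their reads may be split by the counting. Their sum depends less on such a split, though not free of it, since H2-DMb2 has 1710 bp and H2-DMb1 1485 bp. Shared reads left uncounted would lower the sum, and how they were counted is not stated.

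The DO chains were low and overlapped between groups. H2-Oa, the alpha chain, was at 0.915 and 1.47 FPKM in the DMF libraries, against 1.37 and 3.5 FPKM in the controls. H2-Ob, the beta chain, was at 1.87 and 1.61 FPKM in the DMF libraries, against 1.16 and 1.73 FPKM in the controls. Of the 9 tested class II genes, 3 had both DMF values above the controls, 1 had both below and 5 overlapped, which is near the background of all genes (26.4% above). Without H2-DMb1 the count above was 2 of 8. The median log2 difference was 0.34, against -0.01 over all tested genes. This median rested on control replicate 1: it was -0.09 when that library was left out and 0.79 when control replicate 2 was.

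The count of class II genes also depended on the scaling between libraries. With each library scaled to its total of recovered reads in place of the authors' library size, 7 of the 9 lay above both controls, or 6 of 8 without H2-DMb1, where 35.9% of all genes did. Quantile normalization gave 5 of 9 (5 of 8 without H2-DMb1) beside 29.7% of all genes, and removal of the trend with gene length gave 7 of 9 (6 of 8 without it) beside 29.9%. On the scale of read totals, the 11 class II genes took 0.0292% and 0.0285% in the DMF libraries and 0.0155% and 0.0253% in the controls, as shares of recovered reads.

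Class I heavy chains come as classical molecules, H2-K1 and H2-D1, which present peptides to CD8 T cells, and as non-classical molecules with narrower roles. H2-K1 (chromosome 17, 33996017 to 34000333) was at 339 and 337 FPKM in the DMF libraries and at 493 and 812 FPKM in the controls. H2-D1 (chromosome 17, 35262730 to 35267499) was at 271 and 265 FPKM in the DMF libraries and at 399 and 633 FPKM in the controls. Both DMF libraries lay below both controls for each gene, and the DMF libraries nearly coincided while the controls lay far apart. The log2 differences were -0.90 ± 0.39 and -0.91 ± 0.36 (SE, n = 2 per group; limma adjusted p = 0.549 and 0.541).

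Several Q region genes were among the heavy chains with the largest differences. Qa-2 is a class I molecule held in the membrane by a lipid anchor and encoded by Q region genes such as H2-Q6 and H2-Q7. H2-Q7 (chromosome 17, 35439155 to 35443773) was at 10.4 and 9.74 FPKM in the DMF libraries and at 24.8 and 41.7 FPKM in the controls, a ratio of 3.3 between control and DMF means. H2-Q6 (chromosome 17, 35424850 to 35430055) was at 8.2 and 10.5 FPKM in the DMF libraries, against 25.3 and 32.6 FPKM in the controls. The groups did not overlap, and the log2 differences were -1.58 ± 0.30 for H2-Q7 (limma adjusted p = 0.264) and -1.53 ± 0.23 for H2-Q6 (adjusted p = 0.218).

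Relative to the classical chains of the same library, the Qa-2 genes were also lower. H2-Q6 and H2-Q7 together came to 3.05% and 3.36% of H2-K1 and H2-D1 in the DMF libraries and to 5.62% and 5.14% in the controls. Another Q region gene, H2-Q10, whose product is a secreted class I molecule known from mouse liver, had 25 and 14 reads in the DMF libraries and 199 and 181 reads in the controls, or 0.314 and 0.172 FPKM against 2.58 and 2.99 FPKM. It passed the level filter only through its control values. H2-Q2 did not reach the filter and had 5 and 3 reads in the DMF libraries, against 22 and 12 reads in the controls. Reads of the Q region genes are uncertain: 32% of the 50-base stretches of H2-Q6, 26.4% of those of H2-Q7 and 19% of those of H2-Q10 also occur in another gene, most often another of the Q genes.

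H2-T23 encodes Qa-1, which presents leader peptides of other class I molecules to the NKG2A and CD94 receptor. It was at 109 and 106 FPKM in the DMF libraries and at 146 and 237 FPKM in the controls (-0.79 ± 0.32 on the log2 scale, limma adjusted p = 0.548). H2-Q4 was at 55 and 59.4 FPKM in the DMF libraries, against 72 and 113 FPKM in the controls, and H2-T22, a ligand of some gamma delta T cells, was at 23.4 and 25 FPKM, against 31.6 and 48.7 FPKM. H2-M3, which presents formylated peptides, was at 18.7 and 17.7 FPKM in the DMF libraries and at 20.8 and 32.3 FPKM in the controls. All 4 of these genes had both DMF libraries below both controls. H2-M3 came to 3.07% and 2.93% of the classical chains in the DMF libraries, against 2.33% and 2.23% in the controls, so within the library it lay higher. Of the 50-base stretches, 34.5% in H2-T22, 21.8% in H2-Q4, 13.6% in H2-T23, 12.8% in H2-D1 and 9.63% in H2-K1 also occur in another gene. H2-T24 was the exception among the tested heavy chains, at 13.3 and 11.6 FPKM in the DMF libraries and at 13.4 and 6.84 FPKM in the controls, with overlap.

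The 14 heavy chain genes below the filter included 8 of the M region with 0 reads in every library (H2-M1, H2-M9, H2-M11, H2-M10.1, H2-M10.3, H2-M10.4, H2-M10.5 and H2-M10.6). For counting error alone, 0 reads allow a true level of up to 3 reads in that library. H2-M2, H2-M5, H2-M10.2, H2-T3 and H2-Q1 had between 0 and 6 reads in each library. Over the 10 tested heavy chains the median log2 difference was -0.85, against -0.01 over all tested genes, and 9 lay below both controls, where 26.8% of all genes did. Leaving aside H2-Q10, which its control values brought past the filter, 8 of 9 lay below with a median of -0.79. The count of 9 of 10 was the same with a trimmed mean of log ratios, quantile normalization, removal of the gene length trend and scaling to read totals. Of all tested genes 26.7%, 24.1%, 24.7% and 19.7% lay below both controls under these settings, in that order. The size moved with the controls, since leaving out control replicate 1 gave a median of -1.19 and leaving out control replicate 2 gave -0.49, and it was -0.36 under quantile normalization. All 24 heavy chain genes together took 0.239% and 0.237% of the recovered reads in the DMF libraries and 0.337% and 0.457% in the controls.

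**Figure D2:**
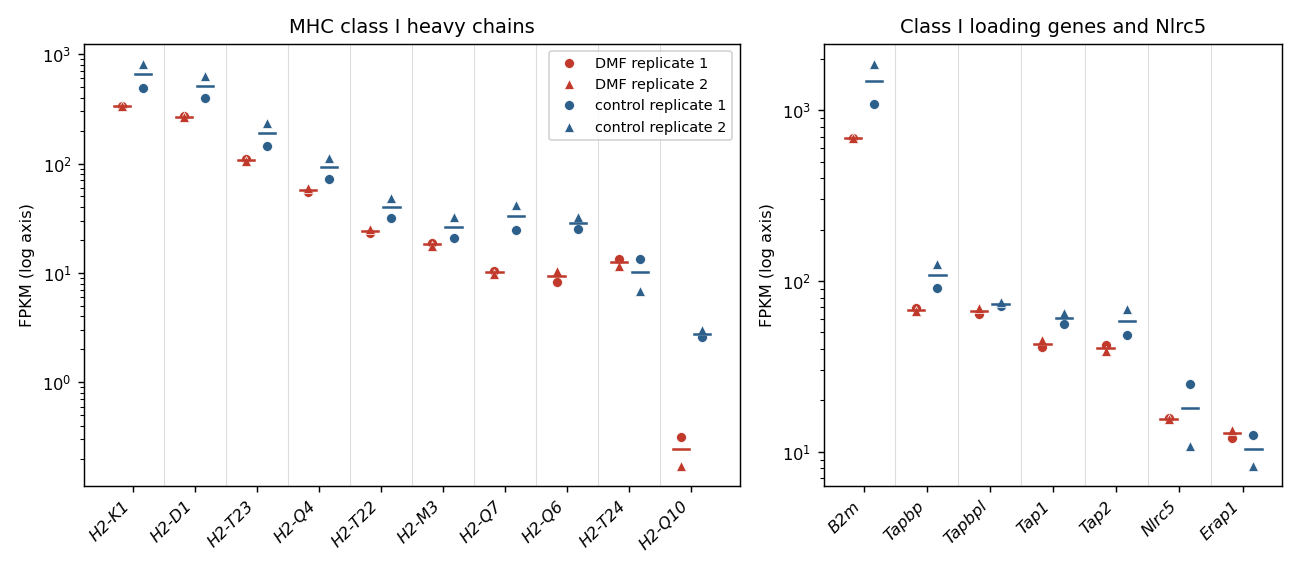
FPKM of the 10 tested class I heavy chains (left) and of the 7 class I loading genes (right) in each library on log axes, DMF left (red) and control right (blue) for each gene, with circles for replicate 1, triangles for replicate 2 and bars for group means. Heavy chains other than H2-T24 have both DMF libraries below both controls, and so do B2m, Tapbp, Tapbpl, Tap1 and Tap2.

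The partners of the heavy chains were examined next. B2m (chromosome 2, 122147686 to 122153083), the light chain of every class I molecule, was at 687 and 690 FPKM in the DMF libraries and at 1090 and 1861 FPKM in the controls. Both DMF libraries lay below both controls, with a ratio of 2.14 between control and DMF means and a log2 difference of -1.05 ± 0.46 (limma adjusted p = 0.549). The sum of H2-K1 and H2-D1 was 88.8% and 87.2% of B2m in the DMF libraries, against 81.8% and 77.7% in the controls.

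Peptides reach class I through the TAP transporter, whose subunits are Tap1 and Tap2, and tapasin (Tapbp) joins the heavy chain to it. Tap1 was at 40.9 and 45.1 FPKM in the DMF libraries and at 56.1 and 65.3 FPKM in the controls. Tap2 was at 42.3 and 39.1 FPKM in the DMF libraries, against 48.4 and 68.7 FPKM in the controls. Tapbp was at 69 and 66.5 FPKM in the DMF libraries, against 90.7 and 126 FPKM in the controls. In these 3 genes the DMF values lay below the controls, by -0.49 ± 0.20, -0.49 ± 0.25 and -0.65 ± 0.25 on the log2 scale (limma adjusted p of 0.549, 0.561 and 0.536). The subunits kept near-equal levels, with Tap1 at 96.6% and 115% of Tap2 in the DMF libraries and at 116% and 95.1% in the controls.

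Tapbpl encodes TAPBPR, a tapasin relative that edits peptides outside the TAP complex. It was at 64.1 and 69.1 FPKM in the DMF libraries, against 71.6 and 75.1 FPKM in the controls, a difference of -0.14 ± 0.20 whose sign turned under 4 of the other scalings or fits. Erap1, the aminopeptidase that trims peptides in the endoplasmic reticulum, was at 12.1 and 13.5 FPKM in the DMF libraries and at 12.5 and 8.27 FPKM in the controls, with overlap. Nlrc5 (chromosome 8, 94434356 to 94527272), the class I transactivator, was at 15.8 and 15.5 FPKM in the DMF libraries and at 25.1 and 10.8 FPKM in the controls. The controls enclosed both DMF libraries, and the difference of -0.08 ± 0.42 became -0.65 when control replicate 2 was left out and 0.49 when control replicate 1 was. Nlrc5 and Erap1, of 8493 and 7280 bp, are the longest of the class I loading genes, and both were lower in control replicate 2 than in control replicate 1, whereas the other loading genes were higher there. Ciita as a share of Nlrc5 was 5.73% and 4.58% in the DMF libraries, against 1.15% and 2.29% in the controls. Of the 7 loading genes 5 lay below both controls, where 26.8% of all genes did. Under quantile normalization, removal of the length trend and scaling to read totals 4 of 7 did so, where 24.1%, 24.7% and 19.7% of all genes did. With read totals 1 of the 7 lay above both controls, where 35.9% of all genes did. The main scaling gave a median log2 difference of -0.49, and quantile normalization gave -0.22.

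**Figure D3:**
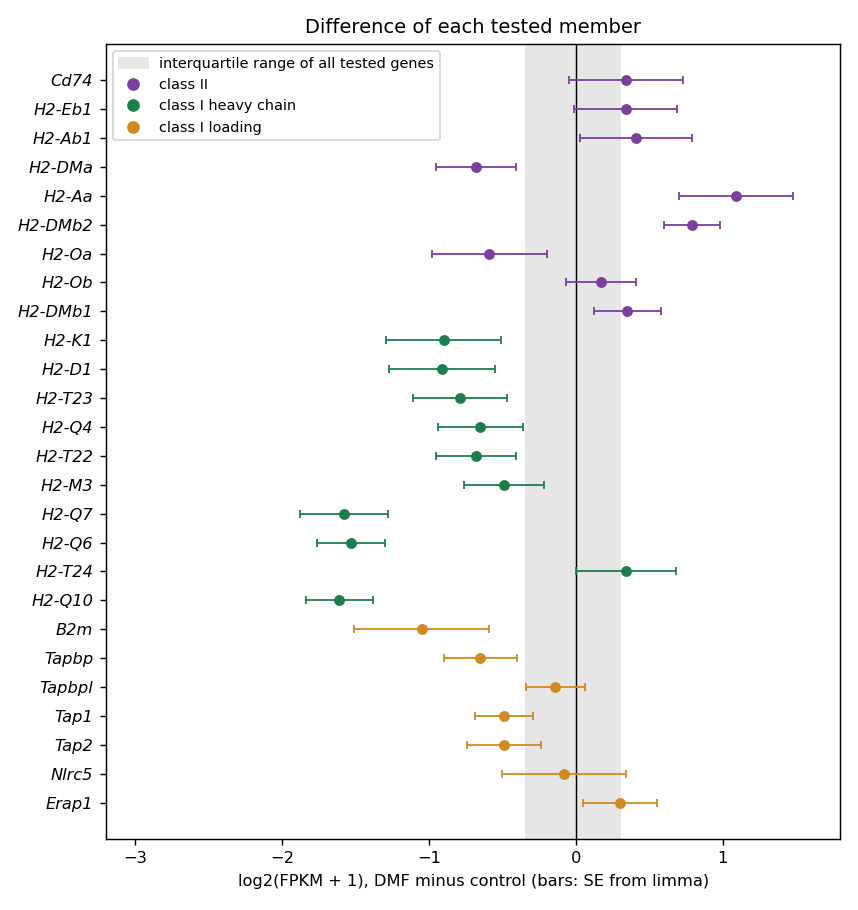
Difference of each of the 26 tested members between DMF and control on the log2(FPKM + 1) scale, with the SE from limma as bars and members coloured by class; the grey band is the interquartile range of all 12166 tested genes, -0.34 to 0.30. The heavy chains other than H2-T24 lie left of the band, with H2-Q7, H2-Q6 and H2-Q10 lowest. B2m, Tapbp, Tap1, Tap2, H2-DMa and H2-Oa also lie left. H2-Aa and H2-DMb2 lie farthest right, and Cd74, H2-Eb1, H2-Ab1, H2-DMb1 and H2-T24 lie just right of the band.

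Ratios between members of the same library do not depend on how the libraries were scaled to each other. Cd74 came to 12.4% and 12.6% of B2m in the DMF libraries, against 4.36% and 5.21% in the controls. H2-Aa came to 4.45% and 4.47% of H2-K1 in the DMF libraries and to 0.867% and 1.21% in the controls. For H2-Ab1 the share of H2-K1 was 8.11% and 8.06% in the DMF libraries, against 2.85% and 3.58% in the controls, and for H2-Eb1 it was 9.82% and 8.54%, against 3.56% and 4.08%. In each of these ratios both DMF libraries lay above both controls, and the gap between groups exceeded the gap between replicates. Such ratios are unaffected by scaling but not by a trend with gene length, and the genes in them span 860 bp (B2m) to 2608 bp (H2-K1). They also reflect the lower class I values: the DMF mean was 0.518 of the control mean for H2-K1 and 0.467 for B2m. It was 2.14 times the control mean for H2-Aa. For H2-Ab1, H2-Eb1 and Cd74, which overlapped between groups, it was 1.27, 1.22 and 1.19 times.

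**Figure D4:**
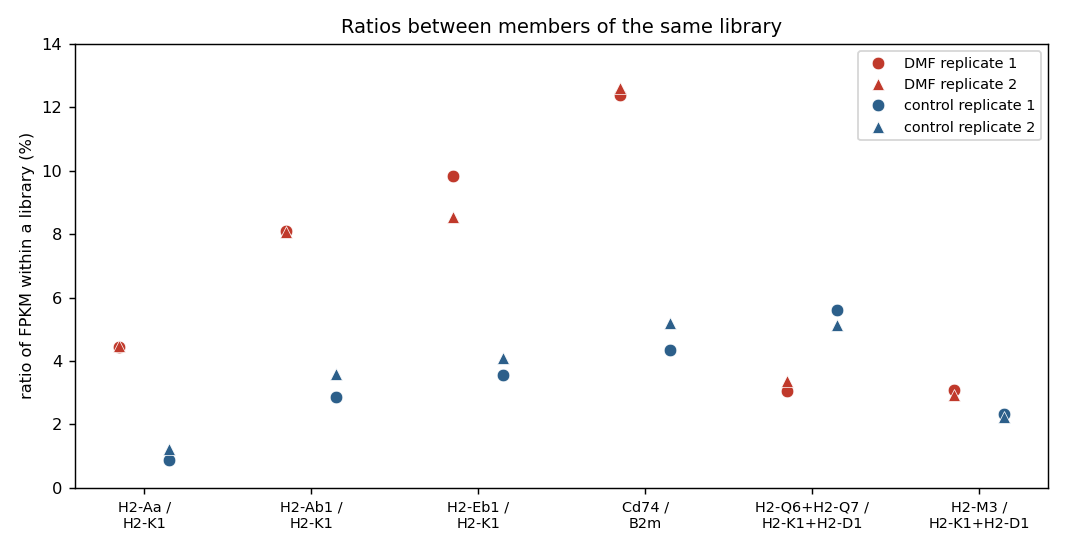
Ratio of FPKM between members of the same library, in percent, for 6 pairs, with DMF left (red) and control right (blue), circles for replicate 1 and triangles for replicate 2. The 4 class II to class I ratios and H2-M3 lie higher in the DMF libraries, with no overlap, and the Qa-2 ratio (H2-Q6 and H2-Q7) lies lower.

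Markers of cells that make class II were set beside these values. Of 12 B cell markers 9 were tested, and 7 of these had DMF values above both controls while Ighm had them below. Over all tested genes 26.4% lay above. Pax5 (mean 1.65 FPKM in DMF, 0.362 FPKM in control) and Blk (2.01 and 0.835 FPKM) passed the level filter only through their DMF values, which favoured their place above. Cd79a, a chain of the B cell receptor, was at 10.4 and 8.71 FPKM in the DMF libraries and at 3.83 and 6.21 FPKM in the controls. The summed level of the 12 markers, of which Ighm makes up most, was 94.5 and 94.2 FPKM in the DMF libraries and 84.4 and 124 FPKM in the controls. H2-Aa was 1.46 and 1.73 times Cd79a in the DMF libraries and 1.12 and 1.59 times in the controls. This ratio overlapped between groups. Cd74 was 8.26 and 10 times Cd79a in the DMF libraries, against 12.4 and 15.6 times in the controls, so measured against this B cell gene it was lower.

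Dendritic cell markers were near 0, with Clec9a and Cd209a at 0 in all libraries and Itgax at 0.102 and 0.0335 FPKM in the DMF libraries and 0.106 and 0.12 FPKM in the controls. The 8 dendritic markers summed to 1.13 and 1.12 FPKM in the DMF libraries, against 10.8 and 27 FPKM in the controls, nearly all of it Batf3, which activated T cells also express. The 8 macrophage and monocyte markers summed to 8.43 and 7.04 FPKM in the DMF libraries and to 8.86 and 12.4 FPKM in the controls, with Csf1r, Adgre1, Fcgr1 and C1qa each below 0.25 FPKM in every library. The part of B cells or other cells in the class II values was not tested.

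**Figure D5:**
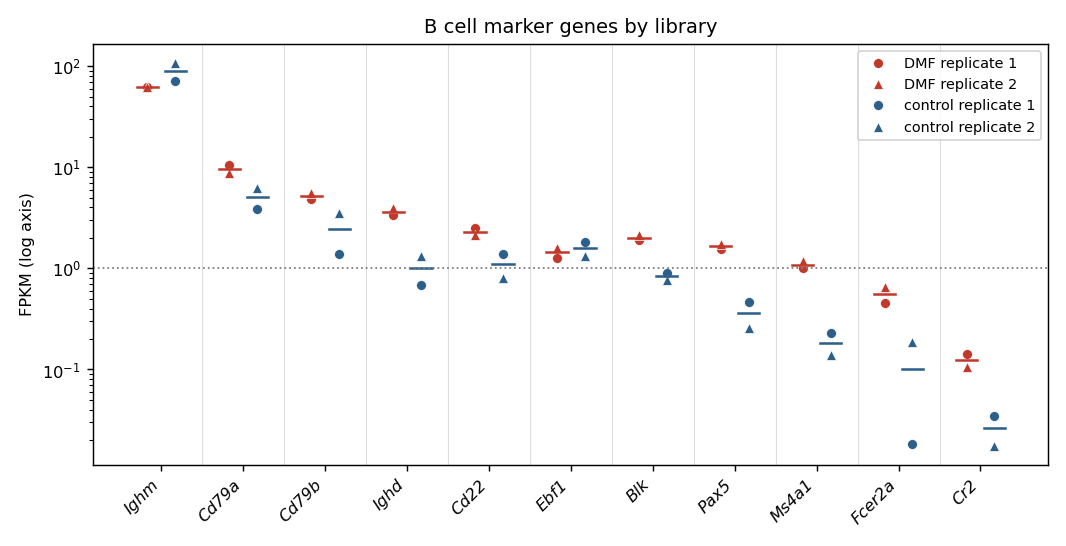
FPKM of 11 of the 12 B cell markers in each library on a log axis, DMF left (red) and control right (blue) for each gene, with circles for replicate 1, triangles for replicate 2, bars for group means and a dotted line at 1 FPKM. Apart from Ighm, which lies lower in both DMF libraries, and Ebf1, which overlaps, the markers shown have both DMF values above the controls.

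Genes that supply and fold class I were next. Of 12 such genes, all tested, 6 lay below both controls and 3 above, where 26.8% and 26.4% of all tested genes did. Their median log2 difference was -0.27, against -0.01 over all tested genes. Those below include the immunoproteasome subunits, which cut the peptides that suit class I, and their activator PA28. Psmb8 was at 32.2 and 32.9 FPKM in the DMF libraries and at 53.1 and 111 FPKM in the controls (-1.21 ± 0.40 on the log2 scale, limma adjusted p = 0.501). Psmb10 was at 27.3 and 30.6 FPKM in the DMF libraries, against 41.6 and 99.6 FPKM in the controls. Psmb9 was at 14 and 15.3 FPKM in the DMF libraries, against 18.6 and 37.8 FPKM in the controls. Psme1, a chain of PA28, was at 82.9 and 79.3 FPKM in the DMF libraries, against 99.8 and 197 FPKM in the controls. In the folding chaperones the groups were closer, with Pdia3 at 158 and 160 FPKM in the DMF libraries and 159 and 176 FPKM in the controls.

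Of 8 names for endosomal enzymes and class II turnover, 7 were in the table and 6 were tested. Of these, 3 lay below both controls and 0 above, where 26.8% and 26.4% of all tested genes did. Ctss, cathepsin S, which cleaves the invariant chain, was at 38.6 and 40.7 FPKM in the DMF libraries and at 65.5 and 98.2 FPKM in the controls (a ratio of 2.06 between control and DMF means, limma adjusted p = 0.408). Ifi30, a thiol reductase of antigen processing, was at 54.9 and 48.9 FPKM in the DMF libraries, against 45.3 and 87.3 FPKM in the controls, with overlap. March1, a ubiquitin ligase that removes class II from the surface, was below the filter, at 0.283 and 0.457 FPKM in the DMF libraries and 0.134 and 0.231 FPKM in the controls.

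Among 15 regulators of MHC genes, all tested, 7 lay below both controls and 4 above, where 26.8% and 26.4% of all tested genes did. The share above was thus near that of all genes. The interferon-gamma receptor chain Ifngr1 was at 7.5 and 5.29 FPKM in the DMF libraries and at 20.3 and 24.7 FPKM in the controls, a difference of -1.68 ± 0.24 on the log2 scale (limma adjusted p = 0.201). Irf1, an interferon-induced factor that drives class I genes, was at 14.9 and 14.8 FPKM in the DMF libraries, against 18 and 23.6 FPKM in the controls. Rfx5, an X box binding subunit, lay above both controls, at 7.26 and 6.58 FPKM in the DMF libraries, against 5.7 and 2.79 FPKM in the controls. Its partners Rfxap and Rfxank, at 13.5 and 13.1 and at 4.64 and 3.89 FPKM in the DMF libraries, against 11.7 and 21.4 and 5.03 and 5.97 FPKM in the controls, did not share that direction. The Y box binding subunits Nfya and Nfyb were at 8.96 and 9.02 and at 13.7 and 14.3 FPKM in the DMF libraries, against 7.84 and 5.56 and 12.4 and 15 FPKM in the controls.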

How the data were processed

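RNA-seq of 4 libraries, DMF and control with 2 each, was deposited by the authors as 1 table of FPKM values that also holds each gene's name, position and length, per the file headers. No aligner is given in the sources used here. Per the submitters' processing notes, edgeR was among the tools (its use unstated) and mm8 was the build. Of 54409 gene identifiers found in GENCODE M21 (GRCm38), 98.33% have the same coordinates in the table, and positions are reported on GRCm38. FPKM times gene length gave whole multiples of 1 step per library for 100% of values, within 0.01, from which reads were recovered.

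The test was limma 3.58.1 in R 4.3.3 (lmFit, eBayes with a trend) on log2(FPKM + 1), DMF minus control, two-sided, for genes with a mean of at least 1 FPKM, with Benjamini-Hochberg adjustment over all 12166 tested genes and a threshold of 0.05. Its functions were tested on simulated reads. Lists were described by counts and medians, with no test. Every member at or above that mean is named with its values, with Ciita and the H2-Eb2, H2-Q2 and H2-M rows below it. Of other pathway genes, examples were named by small p or large change, and Pdia3, March1, Cd86, Rfxap, Rfxank, Nfya and Nfyb after their values were seen. Members and lists were chosen with earlier results of these data known. Shared 50-base stretches were counted in GENCODE M21 transcripts. Promoters are RefSeq windows of GRCm38.p6. The numbers do not pair the samples: the correlation of same-numbered deviations was -0.0233.

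Alternatives were pseudocounts, level filters, trimmed mean of log ratios, quantile normalization, removal of a gene length trend (loess), limma's voom on recovered reads, a replicate block and each library left out. Scaling to recovered read totals was added after the data were seen.

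Single values of 2 genes of the marker and regulator lists are not reported here; the counts and sums over those lists include them.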

Additional observations from a re-analysis of the deposited data

How the results depend on the processing

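No gene was called by limma under 9 of the 14 alternatives, voom included. Calls arose with the replicate block (552 genes) and with 1 library left out (6 to 7420 genes). The labels do not say that a number marks a shared culture, and the same-numbered samples did not deviate together. With the block H2-Aa (adjusted p = 0.0364), H2-Q7 (0.000705), H2-Q6 (0.00103) and H2-Q10 (0.00152) passed in limma. Over all alternatives their adjusted p ran from 0.00612 to 1 for H2-Aa, from 0.000705 to 0.811 for H2-Q7, from 0.00103 to 1 for H2-Q6 and from 0.00152 to 0.604 for H2-Q10. In every alternative that tested them, 14 for 21 members and 13 for H2-DMb2, H2-Oa, H2-Ob, H2-DMb1 and H2-Q10 (not tested at a mean of at least 5 FPKM), 20 of the 26 members kept their direction. Tapbpl turned to 0.17 under quantile normalization, 0.11 with the length trend removed, 0.028 under voom and 0.026 with read totals. Nlrc5 turned to 0.09 under voom and 0.073 with read totals, and with 1 library left out it ran from -0.65 to 0.49. The other members that turned did so with 1 library left out: Cd74 ran from -0.17 to 0.85, H2-Eb1 from -0.10 to 0.79, H2-Ab1 from -0.086 to 0.92 and H2-T24 from -0.10 to 0.78. With 1 library left out the class medians ran from -0.086 to 0.785 for class II, from -1.19 to -0.49 for heavy chains and from -0.59 to -0.38 for loading genes. Under quantile normalization the heavy chain median was -0.36 and the loading median -0.215, and with the length trend removed the class II median was 0.718. Scaling to read totals raised the median of all tested genes to 0.13, and voom to 0.15, beside class II medians of 0.505 and 0.529 and heavy chain medians of -0.68 under both. No filter, which adds genes with few reads, gave -0.57 for the heavy chains. Where a group kept 1 library, that library was assumed to vary like the other group. The depth limits members under 3 reads.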

Other observations

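The table also lists 11 H2 rows that are not protein coding in its annotation, 3 of them polymorphic pseudogenes, which are intact in some strains. Of these 11 rows 4 were tested, and in 3 both DMF values lay below the controls, as in 26.8% of all tested genes. H2-Q5, a polymorphic pseudogene of the Q region, was at 2.34 and 2.79 FPKM in the DMF libraries and at 7.91 and 6.99 FPKM in the controls, a difference of -1.25 ± 0.19 on the log2 scale (limma adjusted p = 0.222). H2-K2, a pseudogene beside H2-K1, was at 14.8 and 13.1 FPKM in the DMF libraries, against 22.2 and 40.2 FPKM in the controls. H2-T10 was at 4.75 and 5.5 FPKM in the DMF libraries and at 5.41 and 7.06 FPKM in the controls, with overlap, and 31.2% of the 50-base stretches of H2-T22 also occur in H2-T10.

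MHC-like and costimulatory genes were few. Cd1d1, which presents lipids to natural killer T cells, was at 1.38 and 1.52 FPKM in the DMF libraries and at 2.13 and 2.71 FPKM in the controls (limma adjusted p = 0.553), and Mr1, which presents vitamin B metabolites, was at 1.97 and 1.75 FPKM, against 2 and 1.78 FPKM. Cd80, a ligand of CD28 that activated T cells also carry, was at 17.1 and 17.4 FPKM in the DMF libraries, against 23.4 and 24.1 FPKM in the controls (adjusted p = 0.532). Cd86, the other CD28 ligand, lay below the filter, at 0.627 and 0.629 FPKM in the DMF libraries and 1.08 and 0.843 FPKM in the controls.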
